A study of Mus musculus with 18 samples.

Results

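The genes described here encode the proteins of the cytosolic ribosome, which reads mRNA and makes protein. They were taken from the deposited gene table by symbol and biotype: protein-coding genes whose symbol starts with Rpl or Rps followed by a digit, without the ribosomal S6 kinases (symbols starting with Rps6k) and without symbols marked as pseudogenes. This gave 82 of 53465 genes, of which 43 encode proteins of the large subunit, 30 proteins of the small subunit, 8 are paralogues that resemble another member, and 1, Rps19bp1, encodes a protein that binds Rps19 and is not a part of the ribosome. Their RNA was read in 18 libraries from 9 adult female C57BL/6J mice with a contusion of the spinal cord, 3 mice in each treatment. PBS, IL-13 or IL-4 was injected into the injured cord 48 h after spinal cord injury (SCI), and 24 h later microglia (CD45 low, CD11b+, F4/80+) and macrophages (CD45 high, CD11b+, F4/80+) were sorted from every mouse. All groups were therefore injured and injected, PBS mice included, and the 6 groups of 3 libraries are called PBS, IL-13 and IL-4 microglia and PBS, IL-13 and IL-4 macrophages. Microglia and macrophages with the same mouse number came from the same animal, and the mouse was the replicate.

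Every cell makes its proteins on ribosomes, each built from a large subunit, where peptide bonds are formed, and a small subunit, where the mRNA is decoded. The proteins of both subunits are needed in equal numbers, and their mRNAs are short, abundant and alike in their first bases, which are known to begin with a C followed by a run of pyrimidines, the terminal oligopyrimidine (TOP) tract. Translation of TOP mRNAs is controlled by the kinase complex mTORC1, so that the amount of ribosomal protein a cell makes need not follow the amount of mRNA measured here.

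The start of the transcript is shown for some of the genes named below with their values, with 30 bases before and 20 bases from the annotated start on (RefSeq, GRCm38.p6). Capitals mark the unbroken run of C and T from the annotated start. The first 4 have a C at that start followed by at least 4 further pyrimidines, and the last 4 do not.
Rps18 (chr17:33955646-33955695, minus strand): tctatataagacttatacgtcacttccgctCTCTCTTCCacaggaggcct
Rps6 (chr4:86857348-86857397, minus strand): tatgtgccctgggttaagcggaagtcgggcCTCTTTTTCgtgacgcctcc
Rpl38 (chr11:114668550-114668599, plus strand): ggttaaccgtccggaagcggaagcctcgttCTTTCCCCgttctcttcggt
Rpl28 (chr7:4792935-4792984, plus strand): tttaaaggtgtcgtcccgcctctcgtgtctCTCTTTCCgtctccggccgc
Rps2 (chr17:24720033-24720082, plus strand): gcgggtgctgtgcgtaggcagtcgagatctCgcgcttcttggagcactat
Rpl13a (chr7:45128726-45128775, minus strand): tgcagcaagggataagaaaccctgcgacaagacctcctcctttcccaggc
Rpl22l1 (chr3:28805478-28805527, plus strand): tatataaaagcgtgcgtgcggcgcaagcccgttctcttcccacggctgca
Rpl36al (chr12:69184048-69184097, minus strand): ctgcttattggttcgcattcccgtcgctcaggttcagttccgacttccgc

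A C at the annotated start followed by at least 4 pyrimidines, read on the strand of the gene, was found in 12 of 54 members of the large and small subunit with such a window (22.2%) and in 3.01% of 27025 genes, and 19 of the 82 members had no window. Rps18 began with a run of 9 pyrimidines. Within 10 bases to either side of that start, such a tract was found in 33 of the 54 members (61.1%) and in 34.4% of all genes. Rps2, Rpl13a and Rpl22l1 held it there and Rpl36al did not. The median log2 fold changes of the 12 members with the tract and the 42 without it were 0.40 and 0.33 in IL-13 against PBS macrophages, the comparison described below with the most estimates above 0, and -0.02 and -0.03 in IL-4 against PBS microglia.

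The 82 genes took between 1.59% and 3.53% of all counts of a library. Their mean share was 3.04% ± 0.31 (SD, n = 3) in PBS microglia, 3.23% ± 0.47 in IL-13 microglia and 2.85% ± 0.15 in IL-4 microglia. In macrophages it was 2.22% ± 0.23 with PBS, 2.54% ± 0.52 with IL-13 and 2.08% ± 0.45 with IL-4. The microglia libraries lay mostly above the macrophage libraries, and the cytokine groups overlapped with PBS in both cell types. A library held between 35961305 and 45849829 counts in all, with a median of 39570356, so that counting error is small for all but the lowest members. Genes with Rpl or Rps symbols and a biotype other than protein-coding held 0.0131% to 0.0301% of the counts. Pseudogenes with other symbols were not counted in this. In bulk RNA of sorted cells, a change in the number of cells that express a gene cannot be told apart from a change in RNA per cell.

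**Figure D1:**
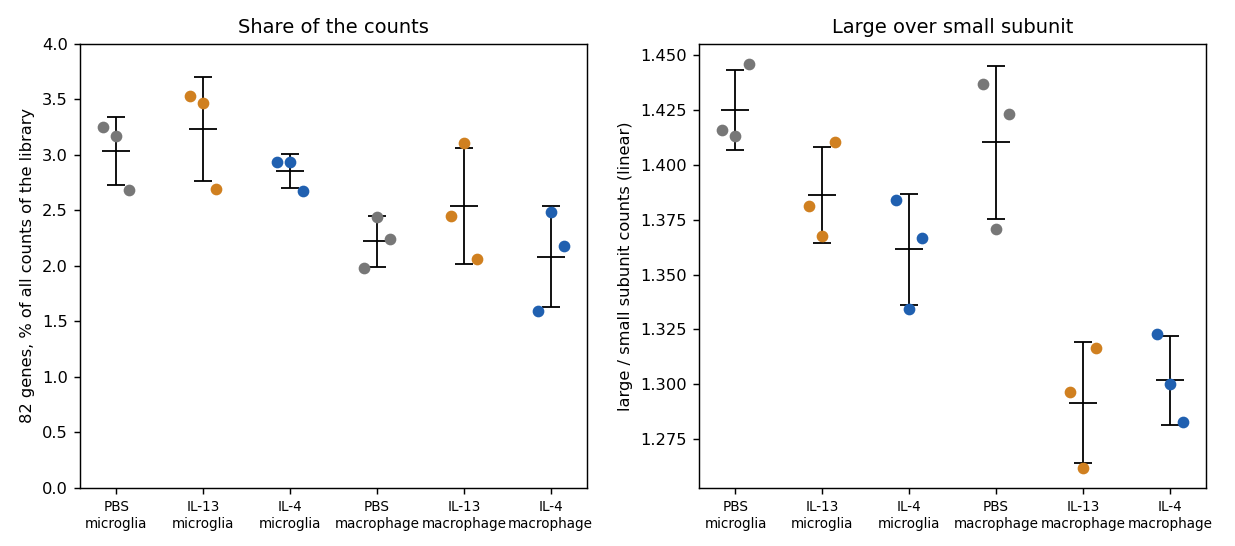
Left, the share of all counts of a library held by the 82 ribosomal protein genes (in percent), and right, the counts of the 43 large-subunit genes divided by those of the 30 small-subunit genes, in the 6 groups. Points are libraries and bars the mean ± SD of 3 mice; the axis of the ratio does not start at 0. The share ranged from 1.59% to 3.53%, and the ratio of every IL-13 and IL-4 library lay below every PBS library of the same cell type.

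Levels were compared between genes as CPM, counts scaled to a common TMM-adjusted library size, per kilobase of the shortest principal transcript (GENCODE, GRCm38). On this scale Rpl10, a large-subunit protein that joins late and completes the peptidyl transferase centre, was highest, at 1327 CPM per kb as the mean of the 6 groups. Rps2, at the entrance of the mRNA channel of the small subunit, followed at 1053, and Rpl13 at 916. The median of the 73 large- and small-subunit genes was 407 CPM per kb, with quartiles of 289.8 and 568, and the lowest was Rps20 at 58.4, whose only principal transcript is annotated with 3706 bases. The order of the 73 genes was nearly the same everywhere: the lowest Spearman correlation between the orders of any pair of groups was 0.926, a description across genes in libraries that share a protocol. Of the paralogues, Rpl22l1 (148 CPM per kb) and Rps27l (180.0) lay within the range of these genes, and Rpl7l1 (63.1) was above only Rps20 among them. Rps27rt (8.78), Rpl39l (1.45) and Rpl3l (0.0778), the last a muscle paralogue, were far below that range, and Rpl10l, known from the testis, had 0 counts in all 18 libraries. The filter on low counts kept 80 of the 82 members in every comparison, and Rpl3l and Rpl10l were the ones it left out.

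The ribosomal protein genes were high or low together in single libraries. Deviations are given here as log2(CPM + 1) of a member minus the mean of its group. In IL-13 microglia of mouse 7, 80 of 80 members were below their group mean, with a median deviation of -0.39, and in IL-13 macrophages of the same mouse again 80 of 80 were below, with a median of -0.41. In IL-4 macrophages of mouse 8, 79 of 80 were below it and the median was -0.51. The other groups also had 1 such library, with smaller deviations: 79 of 80 were below in PBS macrophages of mouse 1 (median -0.22), 78 in PBS microglia of mouse 3 (-0.19) and 72 in IL-4 microglia of mouse 9 (-0.12). The highest library was IL-13 macrophages of mouse 6, with 78 of 80 above and a median of 0.37. A list of 35 short nuclear mRNAs of oxidative phosphorylation had its lowest mean level among IL-13 macrophages in mouse 7 (6.09 against 6.60 and 6.70 in mice 5 and 6, log2 CPM) and among IL-4 macrophages in mouse 8 (5.81 against 6.29 and 6.42). The library with the lowest mean of the members was also lowest for this list in 5 of 6 groups. In IL-4 microglia it was not: mouse 9 had the lowest mean of the members (7.75 against 7.99 and 7.87 in mice 8 and 10, log2 CPM) and the highest of this list (6.32 against 6.31 and 6.25). The amount of RNA that entered cDNA synthesis varied between samples according to the labels, which do not give it per library, and its part in these deviations was not tested. Mouse 7 was low in both cell types, but mouse 8 had a mean deviation of the members of 0.12 in microglia and -0.50 in macrophages.

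**Figure D2:**
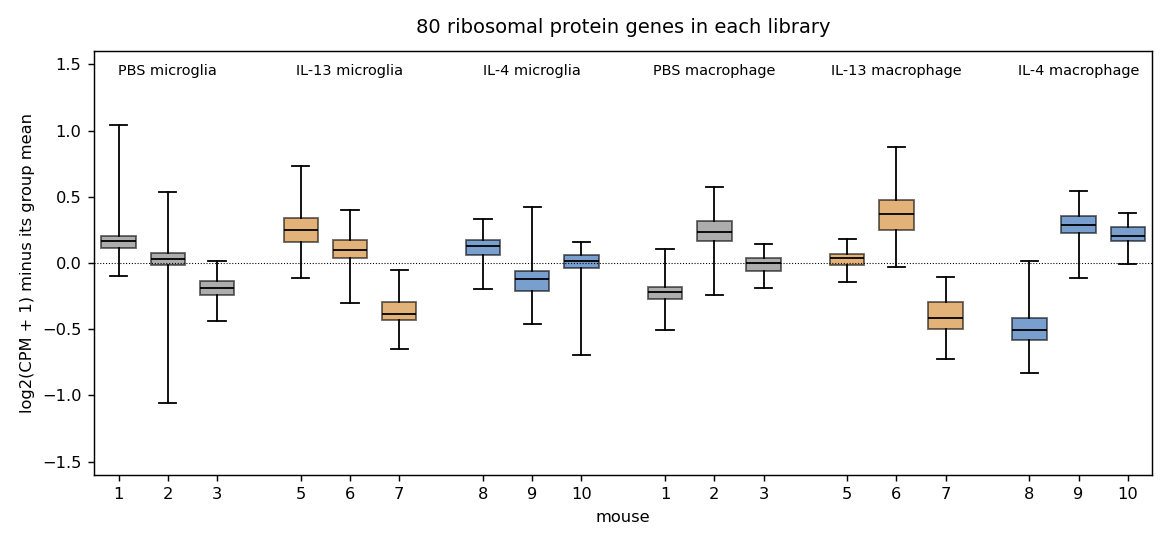
Deviation of the 80 members from their group mean (log2(CPM + 1), vertical axis) in each of the 18 libraries (mouse number, horizontal axis); boxes span the quartiles with the median as a line, and whiskers the lowest and highest member. In each of the 6 groups, PBS included, the box of 1 library lies wholly below 0, with medians from -0.12 in IL-4 microglia of mouse 9 to -0.51 in IL-4 macrophages of mouse 8.

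The first question was whether either cytokine changed the ribosomal protein genes of microglia. Against PBS, 0 of 80 members passed an adjusted p of 0.05 with IL-4 in edgeR's quasi-likelihood test, where 1.33% of all genes tested were higher and 0.887% lower. An unadjusted p under 0.05 was found for 3 members, beside 16.4% of all genes, and DESeq2's Wald test called 1, Rps18, beside 7.81% of all genes in either direction. The median log2 fold change of the members was -0.01, with 39 of 80 estimates above 0, and the median over all genes was -0.06. With IL-13, again 0 of 80 passed, where 0.283% of all genes tested were higher and 0.0835% lower, 1 member had an unadjusted p under 0.05 (7.76% of all genes) and DESeq2 called 0 (2.07%). The median of the members was 0.03. Between IL-4 and IL-13, 0 of 80 differed (0% of all genes tested were higher and 0.0385% lower), with 0 at an unadjusted p under 0.05 (11.4% of all genes), 0 by DESeq2 (3.58%) and a median of -0.03. Leaving out a library in turn moved these medians between -0.08 and 0.08, between -0.10 and 0.19, and between -0.17 and 0.13, so none kept its sign.

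Rps18, in the head of the small subunit, had the lowest p of the members with both cytokines in microglia. Its level was 376, 380.4 and 341 CPM in PBS microglia of mice 1, 2 and 3. It was 583, 512 and 396 CPM in IL-13 microglia of mice 5, 6 and 7 and 551, 501 and 492 in IL-4 microglia of mice 8, 9 and 10. Every cytokine library was above every PBS library. The log2 fold change was 0.52 (SE 0.16, adjusted p = 0.145) with IL-4 and 0.45 (SE 0.16, adjusted p = 0.515) with IL-13, so neither passed edgeR's test over all genes. DESeq2 gave an adjusted p of 0.026 with IL-4, and over the other alternatives the adjusted p ran from 0.0585 to 0.38. The lowest p among members with estimates below 0 was that of Rpl37, a large-subunit protein, at 99.8, 89.9 and 67.7 CPM with PBS and 65.0, 55.8 and 68.8 with IL-4 (log2 fold change -0.42, SE 0.25, adjusted p = 0.472). In all, 11 of 80 members were higher in every IL-4 than in every PBS library and 0 lower, where 25.9% of all genes did not overlap in one direction or the other. With IL-13 1 was higher and 0 lower (16% of all genes), and between IL-4 and IL-13 0 separated (12.3%).

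In macrophages, 1 member passed the test, and it was Rps2. Its level was 766, 824 and 874 CPM in PBS macrophages of mice 1, 2 and 3 and 1008, 1212 and 1217 in IL-4 macrophages of mice 8, 9 and 10. In IL-13 macrophages of mice 5, 6 and 7 it was 1170.2, 1045 and 986 CPM. Every cytokine library was above every PBS library, including that of mouse 8, in which nearly all other members were low. Rps2 rose with IL-4 by a log2 fold change of 0.48 (SE 0.13, adjusted p = 0.04), and with IL-13 its estimate was 0.38 (SE 0.13, adjusted p = 0.161). The call was lost without any of PBS mice 1, 2 and 3 (adjusted p = 0.146, 0.118 and 0.103) and without IL-4 mice 9 and 10 (adjusted p = 0.111 and 0.131), while the log2 fold change stayed between 0.43 and 0.56. It was also lost with only the 6 libraries compared (adjusted p = 0.0556) and without a filter on low counts (0.0712). In microglia Rps2 was at 1076, 1062 and 921 CPM with PBS and 1188, 1126 and 1188 with IL-4. Other RNA also changed in this group: 12 of 12 microglia markers were lower in IL-4 than in PBS macrophages (median log2 fold change -3.95), and their sum was 504 to 886 CPM against 3030 to 4570, and the part of this in the change of Rps2 was not tested. The IL-4 effect on Rps2 did not pass the test of a difference between the cell types, with a log2 difference of -0.29 (SE 0.17, adjusted p = 0.571) for microglia minus macrophages.

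Over all 80 members tested, Rps2 included, IL-4 macrophages had a median log2 fold change against PBS of -0.13 and 24 of 80 estimates above 0. That median turned to 0.08 without IL-4 mouse 8, and without PBS mouse 2 it was -0.01. The call of Rps2 made 1 of 80 members, where 6.77% of all genes tested were higher and 7.2% lower. Rps2 was also the 1 member at an unadjusted p under 0.05 (27.9% of all genes), and DESeq2 called 1 (19.6%). Rps21, a small-subunit protein, had the most negative estimate, at 42.5, 73.3 and 45.7 CPM with PBS and 21.1, 37.8 and 38.8 with IL-4, and a log2 fold change of -0.73 (SE 0.37, adjusted p = 0.228). With IL-13, 79 of 80 estimates were above 0 and the median was 0.34, but 0 of 80 passed (2.53% of all genes tested were higher and 1.66% lower), 5 had an unadjusted p under 0.05 (17.9% of all genes) and DESeq2 called 0 (8.55%). The median over all genes was 0.005 in that comparison. With libraries scaled to the sum of the members in place of TMM, 45 of 80 estimates were above 0. That scaling sets the summed level of the members equal in all libraries, so it cannot test a shift common to them. The members' median fell to 0.12 without IL-13 mouse 6 and rose to 0.50 without IL-13 mouse 7, the highest and lowest libraries of that group. Rpl22l1, a paralogue of Rpl22, had the lowest p, at 55.7, 62.3 and 52.9 CPM with PBS and 101, 139 and 63.8 with IL-13 (log2 fold change 0.83, SE 0.28, adjusted p = 0.141). Members did not overlap with PBS in 1 case higher and 1 lower with IL-4 (34.7% of all genes in either direction) and in 8 higher and 0 lower with IL-13 (24.5%).

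Between IL-4 and IL-13 macrophages, 79 of 80 estimates were below 0, with a median of -0.45 and a lowest value of -1.09 for Rps21. None of the 80 passed the test with edgeR (0 called, where 0.0294% of all genes tested were higher and 0.22% lower) or with DESeq2 (0 called, 3.09% of all genes), and 16 had an unadjusted p under 0.05, beside 11.1% of all genes. The groups did not overlap for 0 of 80 members (14.4% of all genes). IL-13 mouse 6 and IL-4 mouse 8 were the libraries farthest apart, and without them in turn the median was -0.25 and -0.21. With libraries scaled to the sum of the members, which takes out a common shift by construction, 29 of 80 estimates were above 0 in place of 1. Whether a cytokine acted differently in microglia and macrophages was tested in all 18 libraries, and 0 of 80 members passed for IL-4, where 0.49% of all genes tested were higher and 0.502% lower, or for IL-13, where 0.00605% of all genes tested were higher and 0.0181% lower. At an unadjusted p under 0.05 there were 0 members for each cytokine (12.4% and 5.83% of all genes for IL-4 and IL-13), and DESeq2 called 0 for each (4.17% and 0.931%). With TMM, 80 of 80 estimates for IL-13 were below 0, with a median of -0.29 for microglia minus macrophages. Scaled to the sum of the members, which takes out a common shift by construction, 31 were above 0. With TMM the median was -0.10 without mouse 1 and -0.12 without mouse 6. The TMM estimates for IL-4 had a median of 0.11, which turned to -0.07 without mouse 8 and to -0.01 without mouse 2.

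**Figure D3:**
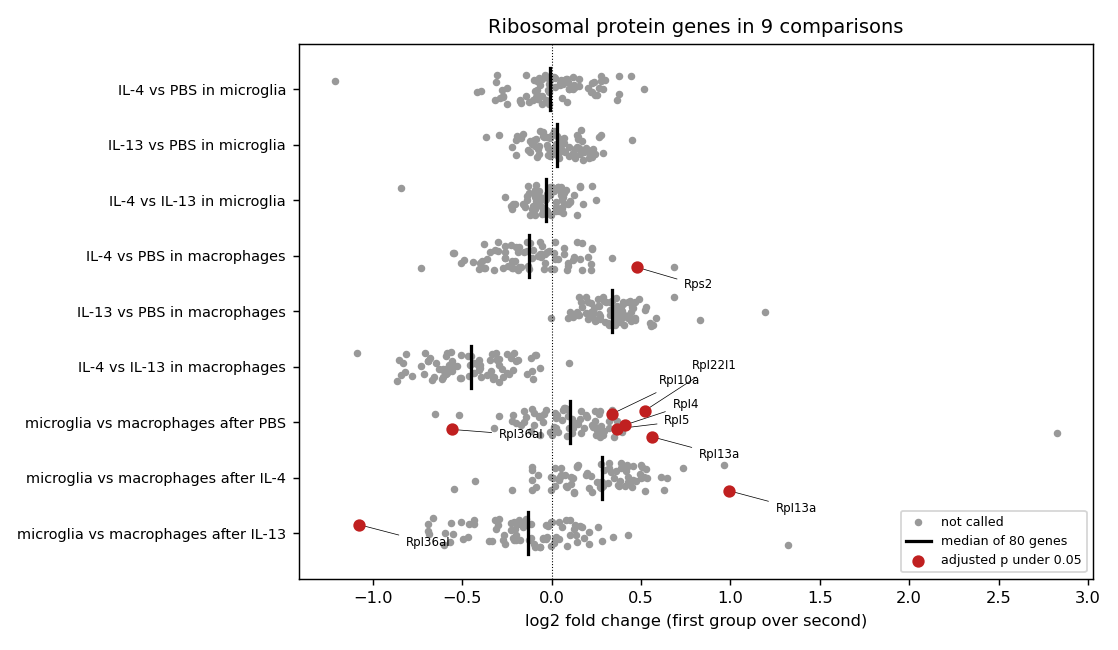
Log2 fold change (horizontal axis) of the 80 members tested in 6 comparisons between treatments and 3 between cell types (rows). Grey points did not pass an adjusted p of 0.05, the farthest of them at 2.83 for Rpl39l, red points with symbols did, and black lines are medians: 1 point is red among the treatment comparisons, Rps2 in IL-4 against PBS macrophages.

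Since the members deviated together in single libraries, each was also expressed as its share of the summed counts of the 82 members, which does not depend on how libraries are scaled to each other. A share is relative, so that it falls when other members rise. With IL-4, 14 members had a higher share in every IL-4 than in every PBS library of microglia and 21 a lower one, together 35 of 80 (43.8%), and dividing every gene tested by the same sum separated 23.9% of them. In macrophages, 12 were higher and 26 lower, 38 of 80 (47.5%), against 23.7% of all genes. Of these, 8 of 80 were higher in both cell types and 15 lower in both, and 0 separated in opposite directions, beside 4.14%, 3.8% and 0.669% of the genes tested in both. Dividing by the sum of the members takes their common deviation out of the members and puts it into every other gene, so members can separate more often than all genes by construction alone, and nothing is read from that excess, in 1 cell type or in both. With IL-13, 7 were higher and 8 lower in microglia (12.7% of all genes) and 8 higher and 7 lower in macrophages (21.9%), of which 4 and 4 were shared and 0 were opposite, beside 0.968%, 3.16% and 0.354% of the genes tested in both. The cell types came from the same mice but were read as separate libraries. Between IL-4 and IL-13, 1 and 2 members separated in microglia (9.24% of all genes) and 4 and 15 in macrophages (12.6%).

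The genes with a higher share in both cell types with IL-4 included Rps18, Rps2, Rps3, Rpl5, Rpl14 and the paralogue Rpl7l1. Rps18 held 1.27, 1.41 and 1.43% of the member counts in PBS microglia and 1.85, 2.00 and 1.78% in IL-4 microglia. In macrophages it held 1.16, 1.19 and 1.23% with PBS and 1.32, 1.74 and 1.54% with IL-4. Rps2 went from 3.71, 3.04 and 3.65% in PBS macrophages to 6.11, 4.42 and 4.77% in IL-4 macrophages, a log2 ratio of the means of 0.56 against 0.16 in microglia. The genes with a lower share in both were Rpl11, Rpl21, Rpl24, Rpl26, Rpl27a, Rpl28, Rpl29, Rpl37, Rpl39, Rps10, Rps12, Rps15a, Rps20, Rps21 and Rps29. Rps21 held 0.221, 0.189 and 0.172% in PBS microglia and 0.142, 0.135 and 0.151% in IL-4 microglia, and 0.205, 0.27 and 0.191% and 0.128, 0.138 and 0.152% in macrophages, log2 ratios of -0.44 and -0.68. Rpl39, a small protein in the wall of the exit tunnel for the new peptide, had log2 ratios of -0.37 and -0.47, and Rpl37 of -0.46 and -0.53. By subunit, 5 of the 8 higher genes were of the small subunit, 2 of the large subunit and 1 a paralogue. Of the 15 lower genes, 9 were of the large and 6 of the small subunit. The 80 members tested held 43 large-subunit and 30 small-subunit genes, and neither this split nor that with IL-13 below was tested. The shift of Rps21 in macrophages was the largest among the 23 shared genes.

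With IL-13, the 4 genes with a higher share in both cell types were all of the small subunit and included Rps18 (log2 ratios of 0.38 in microglia and 0.37 in macrophages), Rps25 (0.18 and 0.27) and Rps6 (0.13 and 0.12). Rps6 is the substrate of the S6 kinases below mTORC1, and Rps25 takes part in initiation without a cap. The 4 with a lower share were all of the large subunit: Rpl28 (-0.35 and -0.24), Rpl23 (-0.24 and -0.30), Rpl21 (-0.20 and -0.20) and Rpl30 (-0.17 and -0.11). Rps18, Rpl21 and Rpl28 were on the lists of both cytokines, which were compared with the same PBS libraries. In a fit across all genes in which libraries were scaled to the sum of the members in place of TMM, chosen after seeing the data, 0 of 80 members passed with IL-4 in microglia (1.19% of all genes called) or macrophages (5.59%), or with IL-13 in microglia (0.154%) or macrophages (1.41%). By edgeR in that scaling, 3, 4, 1 and 1 members had an unadjusted p under 0.05, beside 13.3%, 17.2%, 5.63% and 12.2% of all genes, in the same order.

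**Figure D4:**
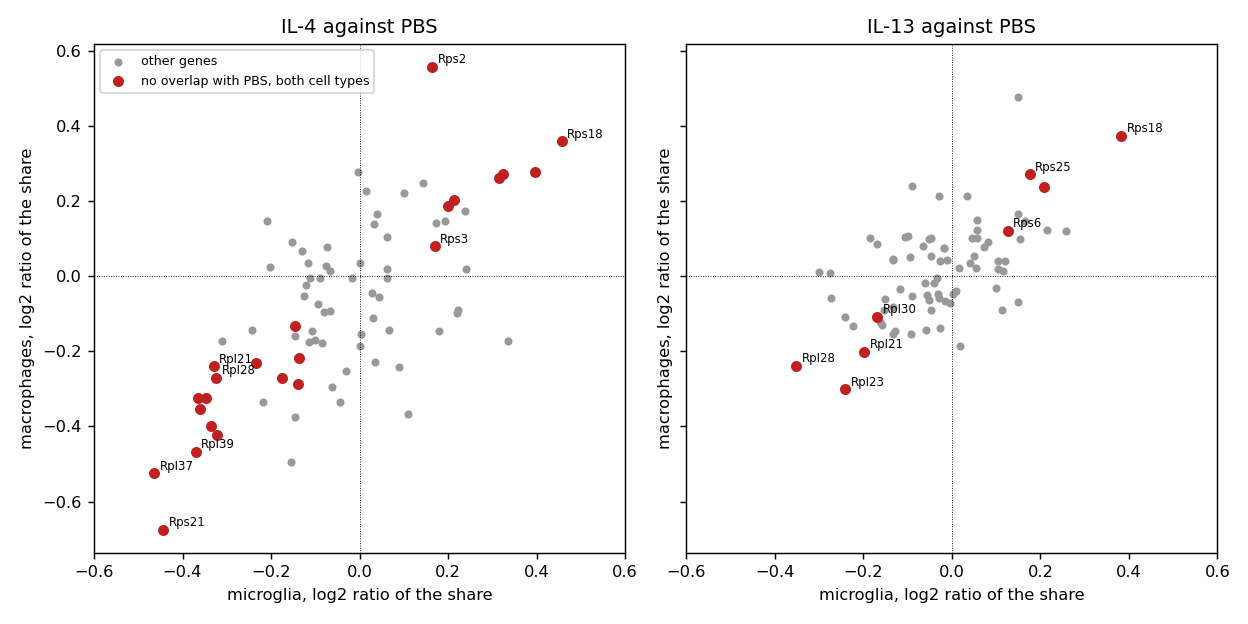
Log2 ratio of a member's mean share of the member counts, cytokine over PBS, in microglia (horizontal axis) and macrophages (vertical axis), with IL-4 on the left and IL-13 on the right. Red points are members, some of them with their symbols, whose cytokine and PBS libraries did not overlap in either cell type, in the same direction: 8 higher and 15 lower with IL-4, 4 and 4 with IL-13; 79 members are drawn, without Rpl39l, which had few counts.

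The summed counts of the large-subunit genes were also divided by those of the small-subunit genes. The ratio was 1.437, 1.371 and 1.423 in PBS macrophages. It was 1.296, 1.262 and 1.317 in IL-13 macrophages and 1.323, 1.2999 and 1.283 in IL-4 macrophages. All cytokine libraries of macrophages were below all PBS libraries. In microglia the ratio was 1.416, 1.413 and 1.446 with PBS, 1.381, 1.367 and 1.410 with IL-13 and 1.384, 1.334 and 1.367 with IL-4, again without overlap between PBS and either cytokine. The ratio is a description with no test, and in a ratio of counts long and abundant mRNAs weigh most.

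The second question was how microglia and macrophages of the same treatment differed. After PBS, 6 of 80 members passed the test, 5 higher and 1 lower in microglia, where 24.5% of all genes tested were higher and 16.3% lower. After IL-4 1 passed, higher in microglia (13.4% of all genes tested were higher and 9.97% lower), and after IL-13 1 passed, lower in microglia (17.2% of all genes tested were higher and 9.46% lower). Each count of members was below what the share of all genes would give. Without mouse 1, 2 or 3 the count after PBS was 5, 4 and 1, without mouse 8, 9 or 10 that after IL-4 was 2, 1 and 0, and without mouse 5, 6 or 7 that after IL-13 was 0, 1 and 0. The groups did not overlap for 15 members higher and 1 lower after PBS (54% of all genes in either direction), 20 higher and 0 lower after IL-4 (41.5%) and 1 higher and 2 lower after IL-13 (45.3%). Within each mouse, 6 of 80 members, Rpl4, Rpl5, Rpl3, Rps3 and Rps12 among them, were higher in microglia than in macrophages in 9 of 9 mice, as 13.7% of all genes were. 1 of 80, Rpl36al, was lower in 9 of 9, as 13.6% of all genes were.

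Rpl36al (chr12:69182731-69184083, minus strand) is a near-identical paralogue of the X-linked Rpl36a (chrX:134585654-134588062, plus strand), and both encode a protein at the exit site for tRNA of the large subunit. In microglia, Rpl36al was at 151, 161 and 135 CPM with PBS, 157, 189 and 97.5 with IL-13 and 159, 175 and 155 with IL-4. In macrophages of the same mice it was at 177, 259 and 210.0, 308, 422 and 221 and 169, 269.6 and 289 CPM. The cell types did not overlap after PBS and after IL-13, and after IL-4 the macrophages of mouse 8 lay within the microglia. The log2 fold change of microglia over macrophages was -0.56 (SE 0.15, adjusted p = 0.0148) after PBS, -1.08 (SE 0.31, adjusted p = 0.0387) after IL-13 and -0.55 (SE 0.21, adjusted p = 0.114) after IL-4. Rpl36a was at 137, 118 and 108 CPM in PBS microglia and 80.1, 109.8 and 101 in PBS macrophages. Rpl36al therefore made up 50.4% to 55.6% of the pair in PBS microglia and 65.7% to 68.4% in PBS macrophages (values per kb). It made up 50.8% to 57.4% and 68.5% to 71.7% with IL-13, and 54.5% to 59.3% and 68.7% to 71.3% with IL-4. The share of Rpl36al was lower in microglia in 9 of 9 mice, and the 9 microglia libraries did not overlap with the 9 macrophage libraries. RSEM divides reads that match both genes, so the level of each is less certain than that of a gene without a copy.

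With libraries scaled to the sum of the members, Rpl36al was lower in microglia in all 3 comparisons, at -0.68 (adjusted p = 0.00502) after PBS, -0.81 (adjusted p = 0.0329) after IL-4 and -1.01 (adjusted p = 0.0242) after IL-13. In that scaling, 1 member was called higher and 1 lower after PBS (20.3% and 16.9% of all genes), 1 and 1 after IL-4 (9.72% and 10.5%), and 0 and 1 after IL-13 (15.2% and 5.06%). The calls of Rpl36al were lost with total counts in place of TMM (adjusted p = 0.243 after PBS and 0.141 after IL-13). They were also lost without mouse 3 after PBS (adjusted p = 0.119) and without mouse 5 or 7 after IL-13 (0.151 and 0.0772), and after PBS with all 18 libraries in a single model (0.154). After IL-4 it was called without mouse 8 (adjusted p = 0.0486).

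Rpl13a (chr7:45125558-45128761, minus strand) was the member with the largest called difference in favour of microglia. Its protein can leave the large subunit and join a complex that silences inflammatory mRNAs in interferon-treated myeloid cells. It was at 456, 410.0 and 312 CPM in PBS microglia and 237, 302 and 242 in PBS macrophages. With IL-4 the values were 541, 420.2 and 440.0 CPM in microglia and 159, 297 and 262 in macrophages. With IL-13 they were 581, 484 and 355 and 351, 493 and 231, and here the cell types overlapped. Microglia were higher in 8 of 9 mice. The log2 fold change was 0.56 (SE 0.16, adjusted p = 0.0201) after PBS and 0.99 (SE 0.24, adjusted p = 0.0219) after IL-4, and after IL-13 the estimate was 0.43 (SE 0.30, adjusted p = 0.352). Scaled to the sum of the members it was 0.42 (adjusted p = 0.046) after PBS and 0.73 (adjusted p = 0.0349) after IL-4. The call was lost without mouse 1 after PBS (log2 fold change 0.36, adjusted p = 0.181), without mouse 10 after IL-4 (adjusted p = 0.11) and, after PBS, with all 18 libraries in a single model (0.124).

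**Figure D5:**
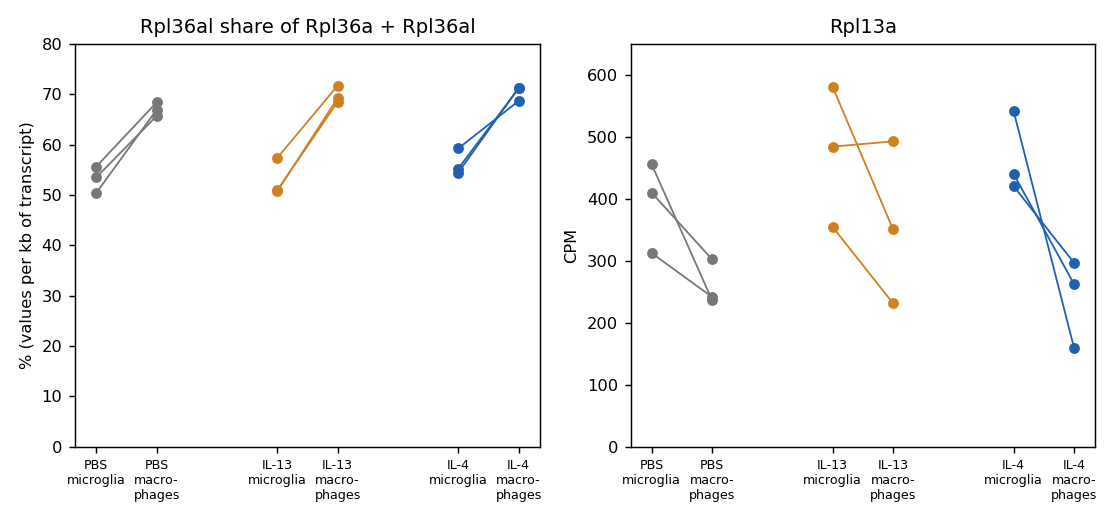
Left, Rpl36al as a percentage of Rpl36al plus Rpl36a (CPM per kb of transcript), and right, the CPM of Rpl13a, in microglia and macrophages (horizontal axis) after PBS, IL-13 and IL-4. Lines join the libraries of the same mouse: the Rpl36al share was lower in microglia in 9 of 9 mice, and Rpl13a higher in 8 of 9.

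The other 4 members called after PBS were higher in microglia. Rpl22l1 was at 84.5, 84.6 and 81.9 CPM in microglia and 55.7, 62.3 and 52.9 in macrophages (log2 fold change 0.52, SE 0.12, adjusted p = 0.00718). Rpl4, which lines the exit tunnel, was at 1146, 1165 and 1083 and 803, 822 and 866 (log2 fold change 0.41, SE 0.10, adjusted p = 0.00968). Rpl5, which binds Mdm2 when ribosome assembly is disturbed, was at 285, 273 and 249 and 174, 233 and 206 (log2 fold change 0.37, SE 0.13, adjusted p = 0.0445). Rpl10a, in the stalk beside the exit site, was at 382, 328 and 302 and 249, 267 and 266 (log2 fold change 0.34, SE 0.12, adjusted p = 0.0465). For each of these 4 genes, all 3 microglia libraries were above all 3 macrophage libraries. Rpl5 and Rpl10a were lost without any of mice 1, 2 and 3 (adjusted p between 0.0853 and 0.278 for Rpl5, and between 0.125 and 0.262 for Rpl10a), and so was Rpl4 (0.0609 to 0.095). Rpl22l1 was lost without mouse 3 (0.0904). With libraries scaled to the sum of the members, none of the 4 was called (adjusted p between 0.0963 and 0.331), and fitted in all 18 libraries together Rpl4 alone was (0.044). Without a filter on low counts, Rpl5 and Rpl10a were lost (0.13 and 0.136). With the mouse as a block, which uses the pairing of the cell types, 4 members were higher and 3 lower after PBS (23.5% and 16.7% of all genes). Rpl10a was then not called (adjusted p = 0.0564), while Rps19bp1 (log2 fold change -0.69, adjusted p = 0.0309) and Rps27l (log2 fold change -0.47, adjusted p = 0.0465) were called lower in microglia. After IL-13 the block raised the count from 1 to 3, 0 higher and 3 lower (15.4% and 10% of all genes), with Rps27l (log2 fold change -0.70, adjusted p = 0.022) and Rps13 (log2 fold change -0.49, adjusted p = 0.0463) beside Rpl36al.

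The size of the family's difference between cell types, and after IL-13 its direction, depended on the scaling. With TMM, the median log2 fold change of microglia over macrophages was 0.10 after PBS, 0.28 after IL-4 and -0.13 after IL-13. With total counts it was 0.42, 0.47 and 0.28, and the median over all genes moved with it, from 0.04 to 0.36 after PBS, from -0.03 to 0.15 after IL-4 and from 0.04 to 0.46 after IL-13. TMM factors were 0.97 to 1.22 in microglia and 0.83 to 0.97 in macrophages. Total counts called 40 members after PBS, all higher in microglia, where 33.4% of all genes were called higher and 9.38% lower. With TMM, the median was -0.09 after PBS without mouse 1, 0.06 after IL-4 without mouse 8, and -0.01 after IL-13 without mouse 6. By share of the member counts, 20 members were higher and 24 lower in microglia after PBS (52.7% of all genes divided by the same sum separated), 18 and 17 after IL-4 (40.8%) and 13 and 17 after IL-13 (35.3%). Across the 73 core genes, longer transcripts had higher fold changes in microglia over macrophages after PBS (Spearman correlation 0.48) and after IL-13 (0.57), and less so after IL-4 (0.25). The same correlation was 0.49 in IL-4 against IL-13 macrophages, -0.33 in IL-13 and 0.28 in IL-4 against PBS macrophages, and 0.43 and -0.28 for the cell type difference of the IL-13 and the IL-4 effect, and it lay between 0.10 and 0.19 in the microglia comparisons, all as a description across genes.

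Other RNA differed between the sorted populations too. A list of 12 microglia markers summed to 8210 to 14400 CPM in PBS microglia and 3030 to 4570 in PBS macrophages, and 12 markers of monocyte-derived macrophages to 3070 to 3910 and 24000 to 25700, as the labels say. In IL-4 microglia the microglia list summed to 3510 to 5640 CPM and the macrophage list to 17000 to 27000, a range that spans that of PBS macrophages, so the macrophage list did not separate these groups. Within macrophages the macrophage list summed to 68900 to 97200 CPM with IL-13 and 106000 to 126000 with IL-4. Of its 12 genes, 2 were called higher in IL-4 than in PBS microglia (median log2 fold change 0.69), beside 1.33% of all genes. Against PBS, 6 of 12 microglia markers were lower in IL-4 microglia, 12 in IL-4 macrophages, 5 in IL-13 macrophages and 0 in IL-13 microglia. A list of 10 fibroblast and pericyte markers summed to 245 to 8220 CPM in microglia and 0.896 to 11.5 in macrophages, and 10 endothelial markers to 1050 to 3250 and 46.5 to 430. A list of 10 neutrophil markers went the other way, with 168 to 244 CPM in PBS microglia and 1020 to 1660 in PBS macrophages. It summed to 555 to 3210 CPM in IL-13 and 263 to 919 in IL-4 macrophages, and 8 of 10 were lower in microglia after PBS and 3 of 10 lower in IL-4 than in PBS macrophages. Lists of lymphocyte, oligodendrocyte, astrocyte, neuron and erythroid markers each summed to between 0.19 and 512 CPM. None of the fibroblast, pericyte and endothelial markers was at 0 in all libraries of microglia. All 24 genes of a proliferation list were higher in microglia after each treatment by edgeR's quasi-likelihood test, and 14 of 24 were lower in IL-4 than in PBS macrophages. The mitochondrially encoded genes held 6.35% to 12.2% of counts in IL-4 microglia and 2.18% to 3.01% in PBS microglia. With IL-4, 10 of 13 rose in microglia and 5 of 13 in macrophages, beside 1.33% and 6.77% of all genes. The part of these in the differences of the ribosomal protein genes was not tested.

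Of the other paralogues, Rps27l, which is induced by p53, made up 31.7% to 39.5% of the Rps27 and Rps27l pair in PBS microglia and 38.9% to 48.5% in IL-4 microglia (values per kb). In macrophages it made up 35.9% to 40.8% with PBS and 40.6% to 43.5% with IL-4, and the groups overlapped in both cell types. Rpl22l1 made up 41.9% to 43.9% of the pair with Rpl22 in PBS microglia, 44.1% to 50.3% in IL-13 microglia and 40.49% to 49.96% in IL-4 microglia. In macrophages it made up 37.1% to 43.0% with PBS, 45.0% to 51.3% with IL-13 and 43.9% to 47.0% with IL-4, so that the cytokine libraries lay above the PBS libraries in macrophages and the IL-13 libraries in microglia. Rpl7l1, a nucleolar relative of Rpl7, made up 7.42% to 8.65% of its pair in PBS microglia and 9.38% to 11.2% in PBS macrophages, and was lower in microglia in 8 of 9 mice. Rps27rt stayed between 2.10% and 3.90% of its pair and Rpl39l, known from male germ cells, below 2.21%. Rpl39l gave the widest estimates of the family without a call: it was at 3.67, 0.0863 and 1.29 CPM in PBS microglia and 0.311, 0.0305 and 0.334 in PBS macrophages, with a log2 fold change of 2.83 (SE 1.27, adjusted p = 0.112). It rested on 150, 4 and 56 counts in microglia and 11, 1 and 12 in macrophages, and the cell types overlapped. Rps19bp1 was at 11.7, 18.7 and 9.01 CPM in PBS microglia and 16.3, 25.9 and 18.4 in PBS macrophages. These levels rest on transcript lengths and on how RSEM divides shared reads, while their order between groups does not rest on the lengths.

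Of the members with known roles beyond the ribosome, Rpl13a and Rpl5 were called between cell types, as given above. The 6 given here are others of these members. None of them was called in any of the 11 comparisons, and nothing is read from that. Rps6 was at 763 ± 87.1 CPM (mean ± SD, n = 3) in PBS microglia, 866 ± 180.3 in IL-13 and 886 ± 26.7 in IL-4 microglia, and at 587 ± 80.8, 787 ± 167 and 638 ± 213 in macrophages. Rps19, the gene most often mutated in Diamond-Blackfan anaemia, was at 372, 336 and 279 CPM in PBS microglia and 392, 366 and 378 in IL-4 microglia, and at 338 ± 67.9 in PBS and 298 ± 95.1 in IL-4 macrophages. Rpl11, the partner of Rpl5 in binding Mdm2, was at 376 ± 37.0 CPM in PBS microglia and 350.2 ± 31.2 in IL-4 microglia, and at 350.5 ± 45.4 and 293 ± 78.6 in macrophages. Rpl38, needed for the translation of Hox mRNAs, was at 67.8 ± 14.5 CPM in PBS and 70.5 ± 2.14 in IL-4 microglia. Rps27a, made as a fusion with ubiquitin, was at 407 ± 47.8 CPM and 435 ± 54.4, and Rpl41, the smallest of the family, at 255 ± 31.0 and 266 ± 22.9.

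The genes around the ribosome were counted from lists. Of 7 ribosomal protein genes with other symbols, 0 were called with either cytokine in either cell type, and Rpsa was called higher in microglia than in macrophages after PBS (log2 fold change 0.50, SE 0.11, adjusted p = 0.00523). Of a list of 20 further genes with TOP RNAs, the noncoding Gas5 among them, 0 were called with either cytokine. Between cell types, 6 were higher and 1 lower in microglia after PBS, beside 24.5% and 16.3% of all genes, led by the elongation factor Eef1b2 (log2 fold change 0.77, SE 0.12, adjusted p = 0.00113) and by Hnrnpa1 (log2 fold change 0.67, SE 0.11, adjusted p = 0.00156), with Tpt1 lower (log2 fold change -0.64, SE 0.15, adjusted p = 0.00934). After IL-4 and after IL-13, 4 of 20 were higher in microglia (13.4% and 17.2% of all genes), Eef1b2, Eef2, Hnrnpa1 and Gas5 in both. Of 49 ribosome biogenesis genes tested, 1 was higher and 10 lower in microglia after PBS, beside the same shares of all genes. Dkc1, of the RNA-modifying particles, was higher (log2 fold change 0.92, SE 0.16, adjusted p = 0.00198), and Heatr1, of the small-subunit processome, was lower (log2 fold change -1.37, SE 0.31, adjusted p = 0.00667). In IL-4 macrophages 2 of 49 rose against PBS, where 6.77% of all genes did, Polr1b (log2 fold change 0.56, SE 0.16, adjusted p = 0.0457) and Rrs1 (log2 fold change 0.79, SE 0.23, adjusted p = 0.0475). After IL-13, 0 were higher and 6 lower in microglia (9.46% of all genes lower), and after IL-4 0 of 49 were called.

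Of 27 translation initiation factors, 3 rose in IL-4 macrophages, where 6.77% of all genes rose and 7.2% fell: Eif2b2, of the exchange factor that reloads the initiator tRNA carrier (log2 fold change 1.31, SE 0.24, adjusted p = 0.00505), Eif5a (log2 fold change 1.08, SE 0.19, adjusted p = 0.00496) and Eif3b (log2 fold change 0.94, SE 0.15, adjusted p = 0.00281). Eif2b2 also rose in IL-4 microglia (log2 fold change 1.00, SE 0.16, adjusted p = 0.0171), where it was 1 of 27 and 1.33% of all genes rose, and Eif5a in IL-13 macrophages, where 2.53% did (log2 fold change 0.81, SE 0.19, adjusted p = 0.0468). Between cell types, 5 of 27 were lower in microglia after PBS, beside 16.3% of all genes, led by Eif4a1 (log2 fold change -0.81, SE 0.10, adjusted p = 0.00035) and Eif1 (log2 fold change -0.57, SE 0.11, adjusted p = 0.00293), 2 after IL-4 and 4 after IL-13 (9.97% and 9.46% of all genes), and 0 were higher. Of 24 genes of the mTORC1 and Myc control tested, 2 fell in IL-4 macrophages, where 7.2% of all genes did, Sesn1, an inhibitor of mTORC1 (log2 fold change -1.14, SE 0.24, adjusted p = 0.012), and Rps6ka1 (log2 fold change -0.59, SE 0.14, adjusted p = 0.0208). Between cell types after PBS, 3 were higher in microglia and 6 lower (24.5% and 16.3% of all genes), with Pdcd4, an inhibitor of Eif4a1, among the higher (log2 fold change 1.66, SE 0.29, adjusted p = 0.002) and Mxd1, a Myc antagonist, among the lower (log2 fold change -2.98, SE 0.19, adjusted p = 1.2e-05). Sesn1 and Pdcd4 were higher and Mxd1 lower in microglia after IL-4 and after IL-13 too. Of 35 short mRNAs of oxidative phosphorylation, 1, Ndufb8, rose with IL-4 in microglia (log2 fold change 0.84, SE 0.13, adjusted p = 0.0154) and in macrophages (log2 fold change 0.57, SE 0.16, adjusted p = 0.0424), beside 1.33% and 6.77% of all genes. Of the same 35, 1, Ndufa4, was higher in microglia than in macrophages after IL-4 (log2 fold change 0.93, SE 0.22, adjusted p = 0.02), beside 13.4% of all genes.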

How the data were processed

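RNA of sorted microglia and macrophages (18 libraries, 9 mice) was read with SMART-seq2, which carries no molecular identifiers or strand. Per the labels and the submitters' processing notes, the authors aligned reads with STAR 2.5.3a to GRCm38 and deposited expected counts per gene from RSEM 1.3.0, which divides reads that match several genes. These were rounded and tested with edgeR 4.0.16 (quasi-likelihood, TMM, filterByExpr, Benjamini-Hochberg over all genes tested, called at an adjusted p under 0.05, R 4.3.3). Treatments were compared in the 9 libraries of a cell type, cell types in the 6 of a treatment, and interactions in all 18. Alternatives were DESeq2 1.42.0, other scalings, filters and sample sets, and each mouse left out in turn. Scaling to the sum of the members was chosen after seeing the data. Same-numbered libraries came from 1 mouse (correlation of deviations 0.049 to 0.205), and the mouse as a block was an alternative. The members and lists were chosen with earlier results of these data known. Named were paralogues and members with known roles, up to 5 called members per comparison and direction or the 2 with the lowest p, and up to 2 called genes per list; genes named for their share were chosen after their values were seen. Deposited totals of 35961305 to 45849829 counts set the precision, for counting error only. Scripts were tested on simulated data. Some members are counted but not reported here by name.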

Additional observations from a re-analysis of the deposited data

How the results depend on the processing

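The number of members called depended on the scaling, the filter, the test and the samples. With IL-4 against PBS microglia DESeq2 called 1 member in place of 0 (3.51% and 4.29% of all genes higher and lower), and with IL-4 against PBS macrophages the 1 call became 0 without a filter on low counts, with only the 6 libraries compared and with libraries scaled to the sum of the members. Between cell types after PBS, 40 members were called with total counts (33.4% and 9.38% of all genes higher and lower), 14 with a minimum of 10 counts in each library (19.7% and 17%), 2 with the sum of the members (20.3% and 16.9%) and 1 with all 18 libraries (15.7% and 9.9%), in place of 6. After IL-4, total counts (14.7% and 6.68%) and DESeq2 (16.8% and 12.5%) each called 8, that minimum 4 (12.5% and 9.97%), and the sum of the members (9.72% and 10.5%) and all 18 libraries (15.2% and 12.5%) 2 each, in place of 1. After IL-13, total counts called 7, all higher in microglia (25.3% and 4.75%), in place of the 1 call, Rpl36al, which was lower. DESeq2 called 2 (20.3% and 12.8%) and the mouse as a replicate block 3 (15.4% and 10%), all lower. The block changed no other count of calls by over 1.5 times. With total counts the median log2 fold change between cell types was 0.42 after PBS and 0.28 after IL-13. In IL-4 against IL-13 microglia it was -0.21 with total counts, with 2 of 80 estimates above 0. In IL-4 against PBS microglia it was -0.16. The medians over all genes were -0.20 in both of these microglia comparisons. Rpl5 turned to -0.0023 with total counts in IL-4 against IL-13 microglia. Leaving out a mouse in turn gave 0 to 1 calls with IL-4 in macrophages. Between cell types and in the interactions, this left out both libraries of the mouse. The calls between cell types were 1 to 5 after PBS, 0 to 2 after IL-4 and 0 to 1 after IL-13. The medians ran from -0.08 to 0.08 with IL-4 and -0.10 to 0.19 with IL-13 in microglia, -0.17 to 0.13 between them, -0.30 to 0.08 with IL-4 and 0.12 to 0.50 with IL-13 in macrophages, and -0.60 to -0.21 between them. Between cell types they ran from -0.09 to 0.18 after PBS, 0.06 to 0.55 after IL-4 and -0.24 to -0.01 after IL-13, and for the interactions from -0.07 to 0.30 with IL-4 and -0.40 to -0.10 with IL-13. Rps20 in IL-4 against IL-13 microglia ran from -0.42 without IL-13 mouse 7 to 0.051 without IL-13 mouse 5. Rpl23 in IL-13 against PBS macrophages was -0.14 without PBS mouse 1 and turned to 0.10 and 0.01 without PBS mouse 2 or 3 and to 0.11 without IL-13 mouse 7. Beyond the alternatives' own construction, the cause was not tested. With 3 mice a group and members that deviate together by library, small common shifts of the family could not be resolved, whatever the depth.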
